A study of Raphanus sativus with 8 samples.

Results

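Expansins and xyloglucan endotransglucosylase/hydrolases (XTHs) are the proteins that loosen and rearrange the plant cell wall while a cell grows. They were followed here in radish shoots of 2 inbred lines, with and without gibberellin (GA). A unigene, the unit of the count table, was a member if its Arabidopsis description contained the word expansin or the name xyloglucan endotransglucosylase or endotransglycosylase. This rule found 97 of 78395 unigenes. Of these, 56 were expansins, matching 16 Arabidopsis genes, and 41 were XTHs, matching 18. All 97 passed the filter on low counts. The rule read the description only. In the domain annotation of the same table, all 56 expansin unigenes carried both expansin domains and all 41 XTH unigenes carried both the catalytic and the C-terminal XTH domain.

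NH-JS1 bolts late and NH-JS2 early. Each line gave a group without GA, named after the line, and a group that received a spray of 10 mM GA, named NH-JS1_GA or NH-JS2_GA. In every group, seedlings 4 days old had been vernalized for 10 days and grown on for 14 days, and whole shoots were taken 6 days after the spray. The sample labels give the stage as vegetative growth for both groups without GA and as bolting for both groups with GA, so treatment and labelled stage cannot be told apart. In the study's bolting test with this vernalization and spray, all NH-JS2 plants bolted but most NH-JS1 plants did not. Whether the plants sampled here had bolted 6 days after the spray is not known. Each group had 2 libraries, each from the pooled shoots of 3 plants, and every value below rests on n = 2 pools per group. A lower count from fewer expressing cells and one from less RNA per cell cannot be told apart in such whole shoots.

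Growing plant cells are held by a wall of cellulose fibrils tied together by other polysaccharides, of which xyloglucan is the main one in the growing walls of Brassicaceae. Expansins let this network slip without cutting it. They comprise alpha-expansins (EXPA), beta-expansins (EXPB) and the expansin-like families (EXLA and EXLB), for which no wall-loosening activity has been established. XTHs cut a xyloglucan chain and join the cut end to another chain. GA promotes stem and leaf elongation, and in other plants transcripts of some members of both families rise where GA drives growth.

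The libraries held 23757588 to 34165272 counts, and 0 to 2 members per library stood at the lowest value of the table. A scaled count below is a count divided by the effective size of its library and multiplied by the mean library size. No transcript lengths were used here, so levels are compared between groups and not between genes. The first principal component of all unigenes separated the lines and held 84.3% of the variance. NH-JS2 replicate 2 stood apart from the other NH-JS2 libraries on the second, which held 3.82%. The comparisons that use the untreated NH-JS2 group include it, and some of their values are also given without it. Shoot identity was checked with 6 photosynthesis genes, of which 4 had unigenes, with summed scaled counts of 980594 to 1974400. The highest sum was that of NH-JS2 replicate 2. Of 7 root genes only IRT1, an iron transporter of the root surface, had a unigene, at 2.06 to 27.5 scaled counts, and of 4 floral organ genes 1 had unigenes, summing to 9.22 to 21.1.

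Many of the Arabidopsis genes were matched by more than 1 radish unigene. Whether unigenes of 1 match are separate genes or variants of 1 gene was not examined. Of the 34 Arabidopsis genes matched, 12 were represented by 1 unigene and the others by 2 to 7. EXPA6 and EXLA1 had 7 unigenes each, and XTH18 and EXPA4 had 6 each. For 20 of the 97 members, another unigene of the same match had a count within 10% in every library, among them 4 of XTH18, all 3 of XTH16, both of XTH4 and 5 of EXLA1. How the counting shared reads among such unigenes is unknown, so they do not count as separate observations. Among 35 expansin genes of Arabidopsis, 18 had no unigene with that match, EXPA7 and EXPA18 of root hairs among them. The same held for 12 of 33 XTH genes.

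Taken as a share of all counts, the 97 members made up 0.268% and 0.25% of the 2 NH-JS1 libraries and 0.327% and 0.35% of the NH-JS1_GA libraries. In NH-JS2 the shares were 0.313% and 0.305%, and in NH-JS2_GA 0.397% and 0.366%. Both libraries with GA lay above both without GA in each line. The XTHs followed the same order, with 0.196% and 0.179% in NH-JS1 against 0.248% and 0.278% in NH-JS1_GA, and 0.264% and 0.24% in NH-JS2 against 0.328% and 0.31% in NH-JS2_GA. The 5 unigenes of XTH24 alone held 0.0817% and 0.0817% in NH-JS1 against 0.127% and 0.151% in NH-JS1_GA, and 0.123% and 0.0859% in NH-JS2 against 0.167% and 0.155% in NH-JS2_GA. Without XTH24, the other 36 XTHs held 0.115% and 0.0968% in NH-JS1 against 0.121% and 0.127% in NH-JS1_GA. In NH-JS2 they held 0.141% and 0.154% without GA, and 0.161% and 0.154% with it, so that little of the gap remained in that line. The shares of the expansins overlapped between treatments in NH-JS2, where they were 0.0486% and 0.0651% without GA and 0.0689% and 0.0563% with it. In NH-JS1 they were 0.0722% and 0.0713% without GA and 0.0793% and 0.0725% with it. All these shares rest on library totals and not on effective library sizes, so a gap this small need not hold for scaled counts.

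The first question was which members respond to GA. XTH24, first described in Arabidopsis as a gene of shoot meristems, was the only gene whose unigenes passed the test, and only in the GA effect averaged over both lines. Its unigene TBIU046405 stood at 4296 and 4083 scaled counts in NH-JS1 and at 6432 and 7621 in NH-JS1_GA. In NH-JS2 it stood at 6155 and 5474, and in NH-JS2_GA at 9155 and 8748. Every library with GA was above every library without GA of the same line. Averaged over the lines, the log2 fold change was 0.68 with a standard error (SE) of 0.093 (edgeR quasi-likelihood test, Benjamini-Hochberg adjusted p = 0.0372). The second unigene that passed, TBIU046406, rose by 0.68 (SE 0.092, adjusted p = 0.0372 in edgeR) and held 3915 and 3742 in NH-JS1 against 5842 and 6901 in NH-JS1_GA, and 5603 and 5038 in NH-JS2 against 8400 and 7953 in NH-JS2_GA.

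The other 3 unigenes of XTH24 had averaged log2 fold changes of 0.55 to 0.69 and did not pass in edgeR. Nearest to the threshold was TBIU040476, with 7438 and 7054 scaled counts in NH-JS1 against 11013 and 13241 in NH-JS1_GA, and 9874 and 8571 in NH-JS2 against 14685 and 13901 in NH-JS2_GA, a log2 fold change of 0.69 and an adjusted p of 0.0539 in edgeR. TBIU040866 had 7098 and 4208 in NH-JS2 against 7250 and 7067 in NH-JS2_GA, so that its groups overlapped in that line. TBIU040867 had 7634 and 4824 against 8262 and 7982, with no overlap. With the counts of all 5 unigenes summed, the averaged change was 0.65 (adjusted p = 0.0767 in edgeR over 16627 matches). The 2 calls rested on 6 of the libraries: without any 1 library of NH-JS1, NH-JS1_GA or NH-JS2_GA no member passed, with adjusted p of 0.0611 to 0.304 for both unigenes in edgeR, while their averaged log2 fold change stayed at 0.62 to 0.74 in these fits. Without NH-JS2 replicate 1 there were 5 calls, all of XTHs, and the share of all unigenes called was 0.773%. DESeq2 called 6 members in the averaged effect, namely the 5 unigenes of XTH24 and XTH8 TBIU046593, beside 0.607% of all 78395 unigenes.

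**Figure D1:**
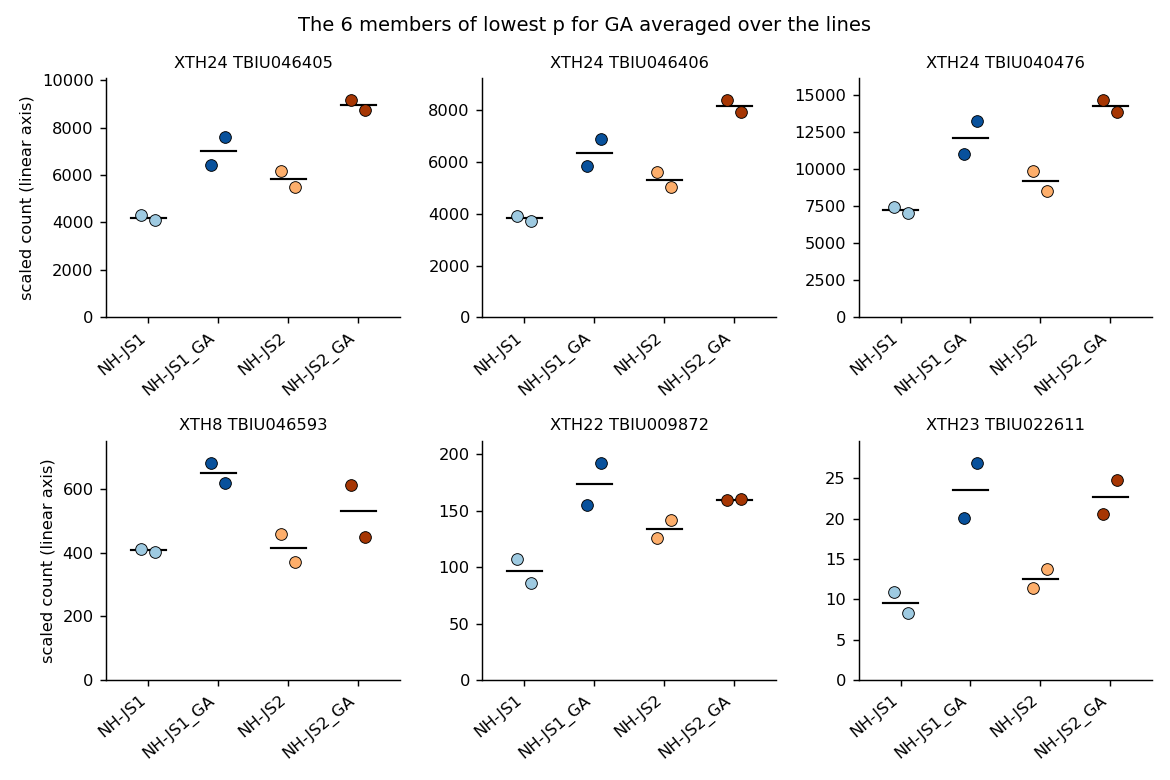
Scaled counts (linear axes from 0) of the 6 members of lowest p for GA averaged over the lines, in the 4 groups; each point is 1 library and each bar the mean of the 2. All 3 unigenes of XTH24 shown are higher in both libraries with GA than in both without GA of the same line, as for TBIU046405 from 4083 to 4296 up to 6432 to 7621 in NH-JS1.

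Within a single line, no member passed the test for GA in edgeR. This held for 97 members in NH-JS1, where 0.0819% of all unigenes tested passed, and in NH-JS2, where 0.0637% did. At an unadjusted p under 0.05, edgeR gave 18 members higher and 2 lower with GA in NH-JS1, beside 3.22% and 4.75% of all unigenes. In NH-JS2 it gave 9 higher and 1 lower, beside 3.74% and 5.03%. DESeq2 called 5 members higher in NH-JS1 and 3 in NH-JS2, and none lower, and each of these calls was a unigene of XTH24. Of all 78395 unigenes, DESeq2 called 0.204% and 0.251%. In NH-JS1 its log2 fold changes were 0.73 to 0.76 for all 5 unigenes, with adjusted p of 0.000105 to 0.0476. For the 3 unigenes called in NH-JS2 they were 0.62 to 0.63, with adjusted p of 0.00375 to 0.00436 in DESeq2. Averaged over the lines, 2 of 97 members passed in edgeR, both higher, beside 0.152% of all unigenes passing and 0.0546% passing as higher. At an unadjusted p under 0.05, 22 were higher and 1 lower, beside 4.85% and 7.2% of all unigenes.

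By family, the median log2 fold change with GA was 0.39 for XTHs and 0.17 for expansins in NH-JS1. In NH-JS2 these medians were 0.17 and 0.05, while the median over all unigenes was 0.00 and -0.01. These medians in NH-JS2 turned on single libraries, being 0.21 for XTHs and 0.26 for expansins without NH-JS2 replicate 2, and 0.02 and -0.14 without NH-JS2 replicate 1. Of the 41 XTHs, 35 were above 0 in NH-JS1 and 25 in NH-JS2, and 23 were above 0 in both. Of the 56 expansins, 40 were above 0 in NH-JS1, 33 in NH-JS2 and 26 in both, and in NH-JS2 44 expansins were above 0 without replicate 2 and 20 without replicate 1. For all 97 members the median was 0.23 in NH-JS1 and 0.06 in NH-JS2, and without NH-JS2 replicate 2 the latter was 0.25. Without each library in turn, it ranged from -0.04 to 0.25 in NH-JS2 and from 0.15 to 0.31 in NH-JS1. Shoot markers lay on the other side in NH-JS2, where all 20 unigenes lay below 0 with GA at a median of -0.46. None of them passed in edgeR, and 3 were lower at an unadjusted p under 0.05, beside 5.03% of all unigenes. Without NH-JS2 replicate 2 the median of the shoot markers was -0.06 with 11 below 0, and without replicate 1 it was -0.79. Their part in the values of the members was not tested.

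Next in p after the first 3 unigenes of XTH24 in the averaged effect came XTH23, XTH22 and XTH8. XTH22 (TCH4), an Arabidopsis gene induced by touch and brassinosteroid, had 107 and 86.3 scaled counts in NH-JS1 and 155 and 193 in NH-JS1_GA for TBIU009872. In NH-JS2 that unigene had 126 and 142, and in NH-JS2_GA 160 and 160. Its log2 fold change was 0.84 in NH-JS1 (SE 0.17, adjusted p = 0.218 in edgeR) and 0.26 in NH-JS2 (SE 0.17, adjusted p = 0.70 in edgeR). The libraries of the groups with and without GA did not overlap in either line. For its other unigene, TBIU005355, the changes were 0.81 and 0.15.

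XTH23, a close relative of XTH22, stood at 10.9 and 8.26 scaled counts in NH-JS1 against 20.1 and 26.9 in NH-JS1_GA, and 11.4 and 13.8 in NH-JS2 against 20.6 and 24.9 in NH-JS2_GA. These are few counts, and the log2 fold change was 1.28 in NH-JS1 (SE 0.29, adjusted p = 0.332 in edgeR) and 0.87 in NH-JS2 (SE 0.30, adjusted p = 0.517 in edgeR). XTH8 had 412 and 402 in NH-JS1 against 682 and 619 in NH-JS1_GA, and 460 and 369 in NH-JS2 against 614 and 450 in NH-JS2_GA. Its groups overlapped in NH-JS2 and not in NH-JS1, and its averaged log2 fold change was 0.52 (SE 0.12, adjusted p = 0.177 in edgeR and 0.033 in DESeq2).

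Among the expansins, EXPA15 TBIU049651 had the lowest p for GA in NH-JS2. It stood at 138 and 204 scaled counts without GA and 318 and 272 with it, a log2 fold change of 0.80 (SE 0.22, adjusted p = 0.457 in edgeR), which was 1.11 without NH-JS2 replicate 2 and 0.53 without replicate 1. In NH-JS1 the same unigene had 285 and 284 without GA and 372 and 257 with it, and the groups overlapped. Without GA this unigene passed as lower in NH-JS2 than in NH-JS1 in edgeR, though not in all other fits. With GA it did not pass between the lines. EXPB1, a beta-expansin, had 16.5 and 27.6 in NH-JS2 against 36 and 36.8 in NH-JS2_GA, a change of 0.76 (SE 0.31, adjusted p = 0.554 in edgeR), which was 1.14 without NH-JS2 replicate 2 and 0.40 without replicate 1. All 3 unigenes of EXPB3 lay below 0 in NH-JS1, at -0.28 to -0.53. Its unigene TBIU066138 went from 1334 and 1389 without GA to 1151 and 738 with it, a change of -0.53 (SE 0.23, adjusted p = 0.619 in edgeR). EXPA8 TBIU025756 had 2450 and 2000 in NH-JS1 against 2196 and 2694 in NH-JS1_GA, and 1732 and 2978 in NH-JS2 against 2919 and 2198 in NH-JS2_GA, and its groups overlapped in both lines.

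**Figure D2:**
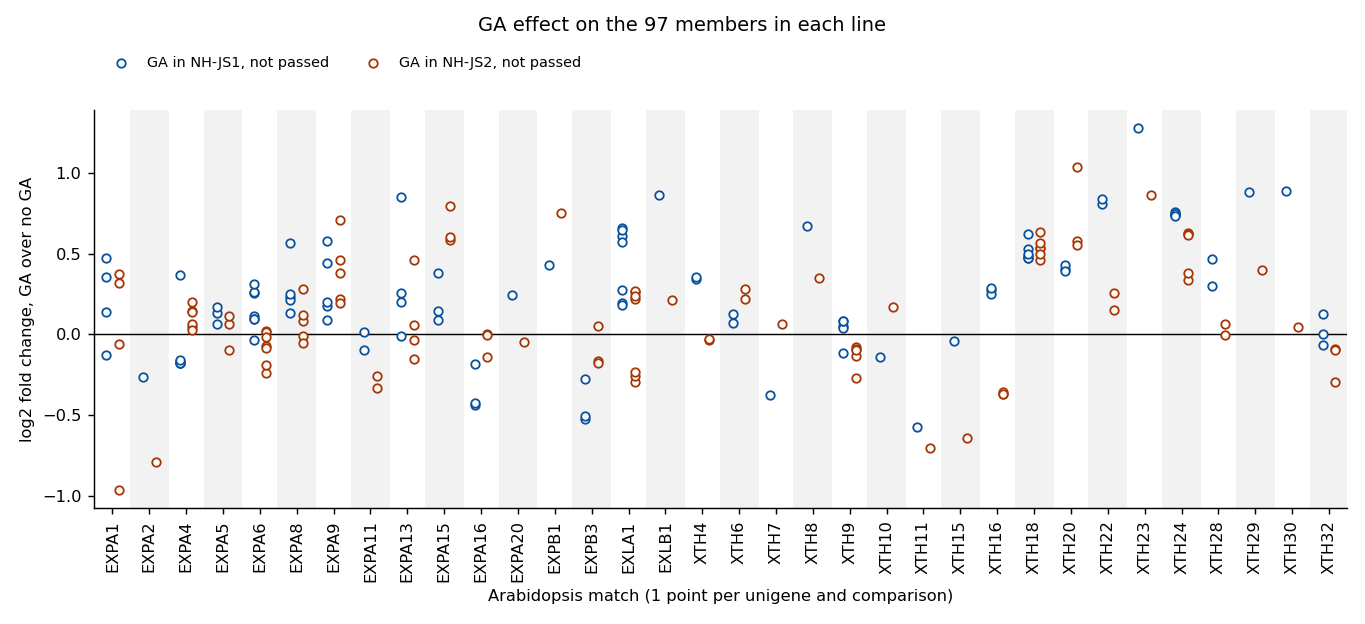
Log2 fold change with GA (vertical axis) of each of the 97 members, by Arabidopsis match (horizontal axis), in NH-JS1 (blue) and NH-JS2 (brown); open points did not pass an adjusted p of 0.05 in edgeR. No point is filled, and the 5 unigenes of XTH24 lie together at about 0.73 to 0.76 in NH-JS1.

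EXPA1, a leaf expansin linked to stomatal opening in Arabidopsis, did not pass for GA in either line. Its 4 unigenes had log2 fold changes of -0.13 to 0.47 in NH-JS1 (adjusted p of 0.75 to 0.953 in edgeR) and -0.96 to 0.38 in NH-JS2 (adjusted p of 0.824 to 0.974 in edgeR). Without NH-JS2 replicate 1 the changes of TBIU005408 and TBIU018148 in NH-JS2 were -0.21 and -0.23, and for TBIU018032 the change was 0.54 without NH-JS2 replicate 2.

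Whether GA acted differently in the 2 lines was tested as the difference of the 2 effects, that in NH-JS2 minus that in NH-JS1. No member passed in edgeR, beside 0.0592% of all unigenes, and none was called by DESeq2, beside 0.0804%. At an unadjusted p under 0.05, 0 members were higher and 2 lower in edgeR, beside 2.16% and 2.06% of all unigenes. These were XTH22 TBIU009872, with a difference of -0.58 (SE 0.23, adjusted p = 1.00 in edgeR), and EXLA1 TBIU034386, with -0.49 (SE 0.20, adjusted p = 1.00 in edgeR). EXPA15 TBIU049651 had the highest difference, 0.66 (SE 0.30), at 0.39 to 0.96 without each library in turn.

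The second question was how the lines differ. Relative to NH-JS1, 10 members were higher and 22 lower in NH-JS2 without GA, and 65 did not pass in edgeR. The 32 calls are 33% of the members, and 30.2% of all unigenes tested passed. With GA, 6 were higher and 22 lower, which is 28.9% of the members beside 28.7% of all unigenes. The total therefore lay near the background in both settings. Beside this, all 20 shoot marker unigenes lay above 0 in NH-JS2 without GA, at a median of 0.49 with 1 call and 7 at an unadjusted p under 0.05 in edgeR, and 18 of 20 with GA. Without NH-JS2 replicate 2, 15 of the 20 lay above 0 without GA, at a median of 0.08, and without replicate 1 the median was 0.79. Their part in the differences of the members was not tested. The 2 comparisons share no library, and 20 of the lower members were lower in both, 90.9% of each list, beside 76.6% and 79.7% for all unigenes. Of the higher members 6 were higher in both, 60.0% of the list without GA and the whole list with it, beside 74% and 78.8%. With several unigenes of 1 match among the members, these shares are a description.

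By family, no expansin was higher in NH-JS2, and 12 of 56 were lower in each setting, beside 14.8% of all unigenes lower without GA and 14.3% with it. Of the 41 XTHs, 10 were higher and 10 lower without GA, and 6 and 10 with it, beside 15.4% and 14.4% of all unigenes higher. The count of expansins without GA depended on single libraries. It was 9 lower and 10 higher without NH-JS2 replicate 1, 19 lower and 1 higher without NH-JS2 replicate 2, and 5 lower without NH-JS1 replicate 2. In these fits 28.7%, 26.6% and 19.7% of all unigenes were called. Summed over unigenes of 1 match, 4 expansin genes were lower in each setting. Without GA they were EXPA1, EXPA2, EXPA15 and EXPB3, and with GA they were EXPA1, EXPA2, EXPA20 and EXLA1. Beside this, 23.3% and 20.9% of all matches were called in either direction. EXPA15 and EXPA20 lay near the threshold (adjusted p = 0.044 and 0.0494 in edgeR), and the call of the EXPA20 unigene with GA ended in DESeq2. Whether the families differ was not tested. The median log2 fold change of the members was 0.01 without GA and -0.12 with it, beside 0.00 and -0.01 over all unigenes.

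Of the 4 unigenes of EXPA1, 3 were lower in NH-JS2 in both settings. TBIU018148 had 839 and 826 scaled counts in NH-JS1 and 1092 and 1039 in NH-JS1_GA. The NH-JS2 libraries had 61.0 and 152, and the NH-JS2_GA libraries 144 and 114. It was lower in NH-JS2 by a log2 fold change of -3.01 without GA (SE 0.31, adjusted p = 9.53e-05 in edgeR) and -3.05 with GA (SE 0.29, adjusted p = 6.9e-05 in edgeR). TBIU005408 followed the same order, with 471 and 472 in NH-JS1 against 573 and 736 in NH-JS1_GA, and 63.1 and 171 in NH-JS2 against 166 and 130 in NH-JS2_GA. Its log2 fold changes were -2.05 and -2.15. The libraries of the 2 lines did not overlap for either unigene.

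TBIU018147, the third unigene of EXPA1, was nearly absent from NH-JS2. It had 78.8 and 81.7 scaled counts in NH-JS1 and 106 and 70.8 in NH-JS1_GA. The NH-JS2 libraries had 2.07 and 4.13, and the NH-JS2_GA libraries 2.06 and 0.92. Because the lowest value of the table is a count of 1, ratios for such low counts were taken after subtracting 1 from each. This takes 1 to have been added to every count. Whether that was done, or only empty counts were set to 1, is not known. In the latter case the ratios would be lower. Without GA, 181 counts in NH-JS1 stood against 3 in NH-JS2, a ratio of 44.7 (exact 95% interval 15.1 to 219, counting error only). With GA, 174 counts stood against 1, a ratio of 179 with an interval of 31.8 to 7124. The intervals do not cover the uncertainty about the subtraction. With nothing subtracted, the mean scaled counts were 80.2 in NH-JS1 against 3.10 in NH-JS2, and 88.3 in NH-JS1_GA against 1.49 in NH-JS2_GA.

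The fourth unigene of EXPA1, TBIU018032, did not follow the others. It had 137 and 128 scaled counts in NH-JS1 against 111 and 131 in NH-JS1_GA, and 116 and 240 in NH-JS2 against 166 and 170 in NH-JS2_GA. Its log2 fold changes were 0.41 without GA and 0.48 with GA (adjusted p = 0.325 and 0.257 in edgeR). The former was -0.20 without NH-JS2 replicate 2 and 0.86 without NH-JS2 replicate 1. With the 4 unigenes summed, EXPA1 was lower in NH-JS2 by a log2 fold change of -1.95 without GA and -2.12 with GA (adjusted p = 0.00272 and 0.00178 in edgeR). Reads of both lines were mapped to 1 set of unigenes with a limit on mismatches, so a lower level of a unigene and a diverged sequence of it cannot be told apart.

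**Figure D3:**
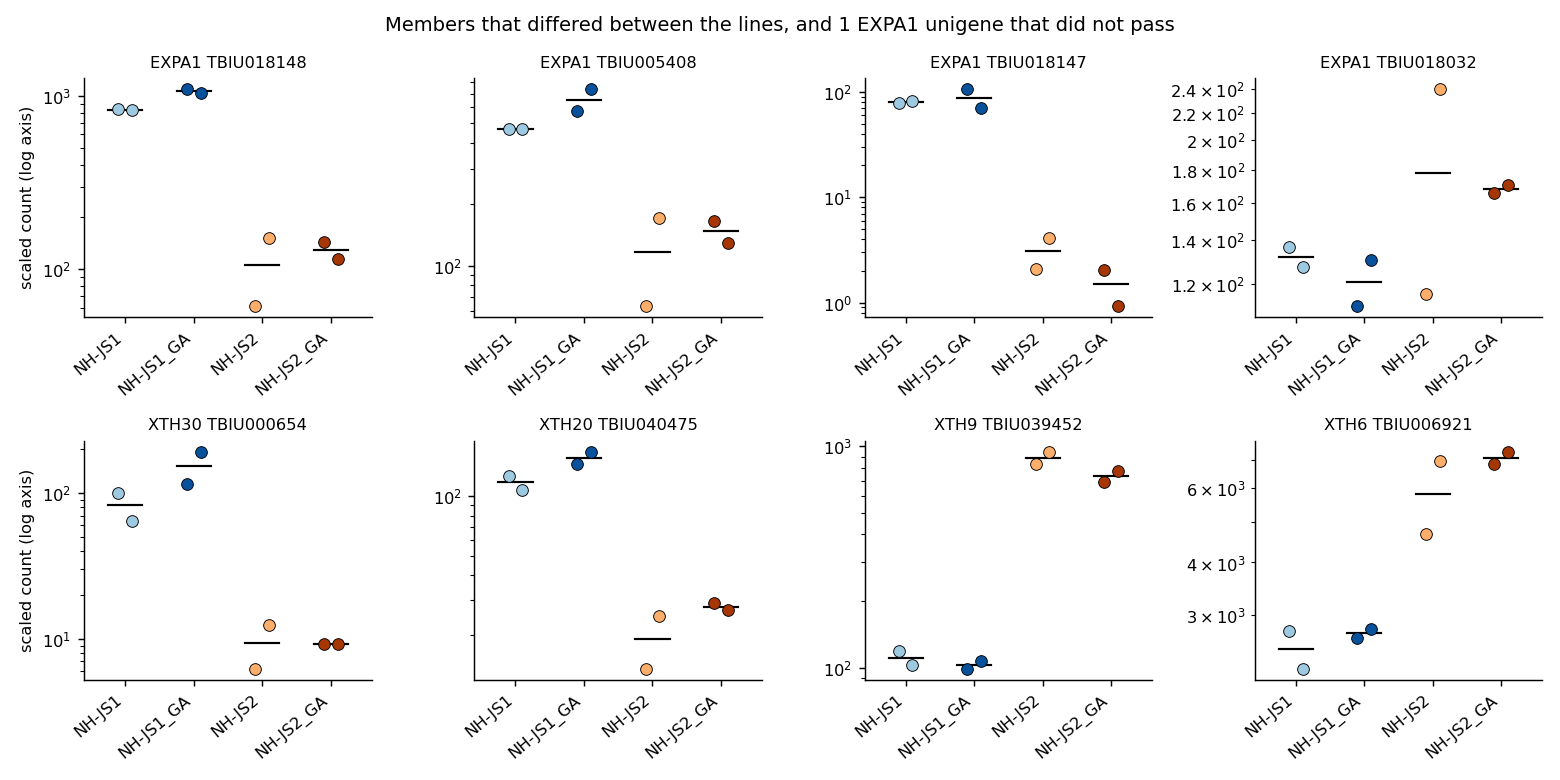
Scaled counts (log axes, each with its own range) of 8 members in the 4 groups; each point is 1 library and each bar the mean of the 2. EXPA1 TBIU018148, TBIU005408 and TBIU018147, XTH30 and XTH20 TBIU040475 are lower and XTH9 TBIU039452 and XTH6 TBIU006921 higher in every NH-JS2 library, while EXPA1 TBIU018032 overlaps between the lines without GA.

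Other expansins lower in NH-JS2 had smaller differences or few counts. EXPA2, linked to seed germination in Arabidopsis, had 11.7 and 17.4 scaled counts in NH-JS1 and 13.1 and 11 in NH-JS1_GA. The NH-JS2 libraries had 2.07 and 1.38, and the NH-JS2_GA libraries 1.03 and 0.92. Less 1 per library, again taking 1 as added to every count, 31 counts without GA stood against 1. That is a ratio of 23 (exact 95% interval 3.83 to 937, counting error only). The EXPA2 call without GA ended in DESeq2 (adjusted p = 0.0527). With GA, 22 counts stood against 0, so the level of EXPA2 in NH-JS2_GA was at least 3.78-fold lower, taking a floor of 3 counts per library. EXPA4 TBIU041739 had 1084 and 1257 in NH-JS1 against 585 and 658 in NH-JS2. It was lower by a log2 fold change of -0.91, and by -0.61 with GA, while the other 5 EXPA4 unigenes did not pass, with -0.44 to 0.64 without GA. Summed over its unigenes, EXPA4 did not pass without GA or with it (adjusted p = 0.162 and 0.622 in edgeR). EXPB3 TBIU007539 was lower by -1.10 without GA and -0.77 with GA. With GA the EXPB3 call ended without any 1 library of NH-JS1, NH-JS1_GA or NH-JS2_GA. The EXPA4 call with GA ended likewise, except without NH-JS1_GA replicate 2, and that without GA ended without NH-JS1 replicate 2.

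The expansin-like gene EXLA1 split into 2 sets of unigenes. The 4 unigenes TBIU064517 to TBIU064520 were lower in NH-JS2 by log2 fold changes of -0.82 to -0.87 without GA and -1.17 to -1.28 with GA, each past the threshold in edgeR. TBIU064518, as an example, had 85.5 and 105 scaled counts in NH-JS1 against 173 and 128 in NH-JS1_GA, and 52.7 and 51 in NH-JS2 against 63.9 and 61.7 in NH-JS2_GA. The other 3, TBIU034386 to TBIU034388, lay at 0.01 to 0.18 without GA and -0.29 to -0.50 with it and did not pass. The 4 calls without GA ended without NH-JS1 replicate 2, and 2 of them also without NH-JS2 replicate 1. That of TBIU064519 ended in DESeq2 too (adjusted p = 0.079), and the 7 unigenes summed did not pass without GA, at -0.38 (adjusted p = 0.07 in edgeR). With GA the sum was lower by -0.86 (adjusted p = 0.00245 in edgeR). EXLB1, the only EXLB gene, had 185 and 275 in NH-JS1 against 412 and 428 in NH-JS1_GA, and 249 and 79.9 in NH-JS2 against 123 and 266 in NH-JS2_GA, and passed in no comparison.

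Among the XTHs lower in NH-JS2, XTH30, XTH20 and XTH18 had the largest differences. XTH30 had 101 and 64.2 scaled counts in NH-JS1 and 115 and 192 in NH-JS1_GA. The NH-JS2 libraries had 6.20 and 12.4, and the NH-JS2_GA libraries 9.27 and 9.20. Its log2 fold change was -3.19 without GA (SE 0.44, adjusted p = 0.000613 in edgeR) and -4.03 with GA (SE 0.40, adjusted p = 8.32e-05 in edgeR). The lines did not overlap in any library.

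XTH20 and XTH18 belong to a group of closely related XTH genes expressed mainly in the Arabidopsis root. All 3 unigenes of XTH20 were lower in NH-JS2, by -2.66 to -2.91 without GA and -2.30 to -2.68 with GA. TBIU040475 had 127 and 108 scaled counts in NH-JS1 against 145 and 168 in NH-JS1_GA, and 13.4 and 24.8 in NH-JS2 against 28.8 and 26.7 in NH-JS2_GA. For XTH18, the 4 unigenes TBIU046407 to TBIU046410, which had near-equal counts, were lower by -2.0 to -2.13 without GA and -1.95 to -2.04 with GA. TBIU046408 held 72.1 and 43.1 in NH-JS1 against 60.4 and 101 in NH-JS1_GA, and 9.31 and 17.9 in NH-JS2 against 22.7 and 16.6 in NH-JS2_GA. The other 2 XTH18 unigenes had -0.93 and -0.94 without GA and -1.0 and -1.03 with it and did not pass.

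The single root marker with a unigene, IRT1, was also lower in NH-JS2 without GA. It had 21.8 and 27.5 scaled counts in NH-JS1 against 12.1 and 6.98 in NH-JS1_GA, and 5.17 and 2.76 in NH-JS2 against 2.06 and 4.60 in NH-JS2_GA, with a log2 fold change between the lines of -2.54 without GA (adjusted p = 0.0021 in edgeR). With GA it did not pass at -1.45 (adjusted p = 0.0655 in edgeR). For GA in NH-JS1 IRT1 was at -1.36 (adjusted p = 0.404 in edgeR), while the summed counts of XTH20 and XTH18 were at 0.41 and 0.50, none of them past the threshold. The 6 other root genes of the list had no unigene with that match. The part of root tissue in the result was not tested.

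XTH7 and XTH10 were lower in NH-JS2 to a smaller degree. XTH7 had 152 and 127 scaled counts in NH-JS1 against 114 and 101 in NH-JS1_GA, and 68.3 and 52.3 in NH-JS2 against 77.2 and 50.6 in NH-JS2_GA, with log2 fold changes of -1.19 and -0.75 (adjusted p = 0.00405 and 0.0371 in edgeR). XTH10 had 84.6 and 60.6 in NH-JS1 against 62.4 and 69.8 in NH-JS1_GA, and 39.3 and 27.6 in NH-JS2 against 33.0 and 43.3 in NH-JS2_GA, with -1.10 and -0.79 (adjusted p = 0.0123 and 0.0483 in edgeR). With GA both calls ended in DESeq2 (adjusted p = 0.108 and 0.207), in edgeR with summed matches (adjusted p = 0.0601 and 0.0721), and without any 1 library of NH-JS1 or NH-JS1_GA or without NH-JS2_GA replicate 2. The XTH10 call with GA also ended without NH-JS2_GA replicate 1, and that without GA ended without NH-JS1 replicate 1 and without NH-JS2 replicate 2.

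XTH9 was higher in NH-JS2, and its unigenes differed widely in how much. In Arabidopsis it is expressed in shoot apices. TBIU039452 had 119 and 103 scaled counts in NH-JS1 and 98.6 and 107 in NH-JS1_GA. The NH-JS2 libraries had 832 and 944, and the NH-JS2_GA libraries 693 and 778. Its log2 fold change was 3.0 without GA (SE 0.13, adjusted p = 6.7e-07 in edgeR) and 2.84 with GA (SE 0.13, adjusted p = 8.42e-07 in edgeR). TBIU040651 and TBIU040652 were higher by 1.41 and 1.33 without GA and 1.19 and 1.14 with GA. TBIU039447 and TBIU039448 were higher by 0.55 and 0.51 without GA. With GA the former was higher by 0.42, and the latter did not pass at 0.39 in edgeR, though it did in DESeq2 (adjusted p = 0.0387). The call of TBIU039447 with GA ended with library totals (adjusted p = 0.0654 in edgeR), with the replicate block (0.0562) and without any 1 library of NH-JS1_GA or NH-JS2_GA (0.101 to 0.176). Without GA both calls ended without NH-JS1 replicate 2 (adjusted p = 0.124 and 0.158 in edgeR), and that of TBIU039448 also with library totals (0.0504) and in the compared groups alone (0.0552). Summed, XTH9 was higher by 0.91 and 0.77 (adjusted p = 0.00148 and 0.00355 in edgeR).

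XTH6 was the other gene higher in NH-JS2 in both settings. TBIU006921 had 2751 and 2236 scaled counts in NH-JS1 against 2656 and 2781 in NH-JS1_GA, and 4663 and 6961 in NH-JS2 against 6828 and 7307 in NH-JS2_GA. Both NH-JS2 groups lay above both NH-JS1 groups in every library, and the log2 fold changes were 1.22 and 1.38 (adjusted p = 0.00132 and 0.000668 in edgeR). Its second unigene, TBIU006922, was higher by 1.26 and 1.41.

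Without GA only, XTH28 TBIU025527 and 2 unigenes of XTH24 were also higher in NH-JS2. XTH28, which acts in stamen filament growth in Arabidopsis, had 123 and 94.5 scaled counts in NH-JS1 against 181 and 164 in NH-JS2, and its log2 fold change was 0.66 (adjusted p = 0.0288 in edgeR). With GA it was at 132 and 171 in NH-JS1_GA and 156 and 189 in NH-JS2_GA, and the lines overlapped. XTH24 TBIU046405 and TBIU046406 were higher by 0.47 each without GA (adjusted p = 0.0245 and 0.0224 in edgeR) and did not pass at 0.35 and 0.36 with GA, where DESeq2 called TBIU046406 (adjusted p = 0.0483). That the lines differ less with GA was not shown, since the difference of the effects was -0.12 and -0.11 (adjusted p = 1.00 in edgeR). These XTH24 and XTH28 calls also ended without NH-JS1 replicate 2 and without NH-JS2 replicate 1, those of XTH24 also without NH-JS1 replicate 1, and they ended with library totals in place of TMM factors, with adjusted p of 0.0717 to 0.102 in edgeR. The XTH28 call ended in DESeq2 (adjusted p = 0.0646) and that of XTH24 TBIU046405 in edgeR on the compared groups alone (adjusted p = 0.0525). Summed over their unigenes, neither XTH24 nor XTH28 passed (adjusted p = 0.0592 and 0.0816 in edgeR).

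**Figure D4:**
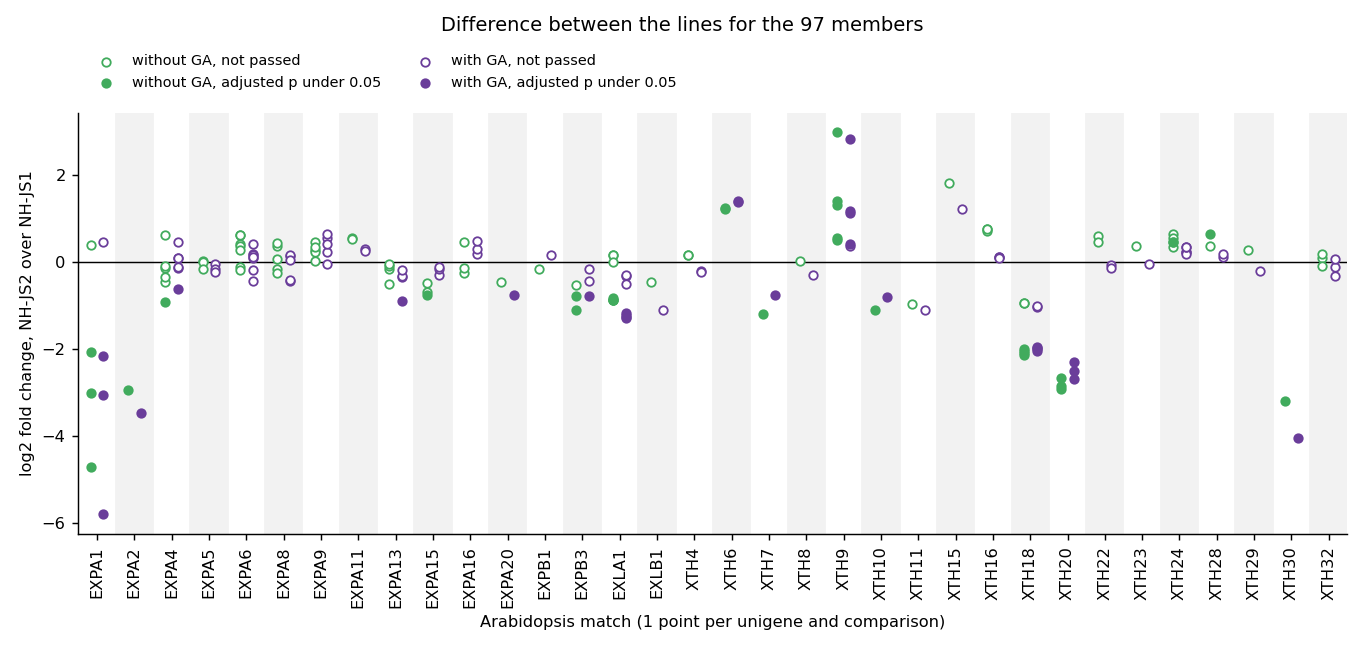
Log2 fold change of NH-JS2 over NH-JS1 (vertical axis) for each of the 97 members, by Arabidopsis match (horizontal axis), without GA (green) and with GA (purple); filled points passed an adjusted p of 0.05 in edgeR. Filled points above 0 are XTHs alone, XTH9 reaching 3.0, and filled points below 0 reach -5.80 in EXPA1.

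By the criteria of the study, which ask for a log2 fold change of 0.6 in either direction, for 0.01 as the upper limit of the adjusted p and for 500 counts, taken here as the mean scaled count of the higher group, 5 members were higher and 3 lower in NH-JS2 without GA. With GA, 5 were higher and 2 lower, and 3.26% and 2.92% of all unigenes met the criteria. The 5 higher ones were XTH9 TBIU039452, TBIU040651 and TBIU040652 and both XTH6 unigenes, in both settings. Without GA the 3 lower ones were EXPA1 TBIU018148, EXPA4 TBIU041739 and EXPB3 TBIU007539. With GA the 2 lower ones were EXPA1 TBIU018148 and TBIU005408. No member met them in edgeR for GA in either line, where 0.00303% of all unigenes did in NH-JS1 and 0.0091% in NH-JS2.

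Of the 32 members called without GA, 17 were called in all 14 other fits of single unigenes at this threshold. Of the 28 called with GA, 20 were. The share of all called unigenes kept in these fits is not given, so both counts are a description. In both settings the members kept included EXPA1 TBIU005408, TBIU018147 and TBIU018148, all 3 unigenes of XTH20, 3 of XTH18, XTH30, both of XTH6 and 3 of XTH9. Summed over unigenes of 1 match, 2 genes were higher and 9 lower without GA, and 2 and 7 with GA, out of 34 genes, beside 23.3% and 20.9% of all 16627 matches called.

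Several members varied between replicates by more than they varied between groups. XTH15, an XTH gene induced by shade in Arabidopsis, had 326 and 18.4 scaled counts in NH-JS1 against 13.1 and 325 in NH-JS1_GA, and 461 and 776 in NH-JS2 against 280 and 505 in NH-JS2_GA. Within NH-JS1 and NH-JS1_GA, 1 library each was high and 1 low, and XTH15 passed in no comparison. XTH11 had 8.38 and 26.6 in NH-JS1 and 18.1 and 4.99 in NH-JS1_GA, so that the high library was the other replicate than in XTH15 in both groups. The 3 unigenes of XTH16 were, like XTH15, lower in NH-JS1 replicate 2 and higher in NH-JS1_GA replicate 2, as for TBIU064037 with 325 and 200 against 254 and 384.

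In NH-JS2 the alpha-expansins stood higher in replicate 2 than in replicate 1. This held for 33 of 44 EXPA unigenes, with a median difference of 0.55 on the log2 scale of scaled counts plus 1, against 0.00 over all unigenes. In the 3 other groups the median difference of the EXPA unigenes was -0.05, -0.04 and -0.19. One-sided splits between replicates occurred elsewhere too. In NH-JS2_GA 37 of 44 EXPA unigenes were lower in replicate 2, and of the 41 XTHs 37 were lower in replicate 2 of NH-JS1 and 33 higher in replicate 2 of NH-JS1_GA. All 17 unigenes of EXPA5, EXPA6, EXPA8 and EXPA11, genes chosen after their values were seen, were higher in replicate 2 of NH-JS2, by 0.07 to 0.94. EXPA5 TBIU001775 had 618 and 1157 in the 2 NH-JS2 libraries, while NH-JS1 had 886 and 841, NH-JS1_GA 1031 and 866, and NH-JS2_GA 955 and 897. NH-JS2 replicate 2 also had the highest sum of shoot markers, 1974400 against 1288790 in replicate 1, and the part of that difference in the values of the expansins was not tested. Members that differed by more than 2-fold between replicates numbered 7 in NH-JS2, against 1 in NH-JS2_GA and 2 in each NH-JS1 group. These are 7.22% of the members in NH-JS2 beside 4.57% of all unigenes, and 1.03% beside 2.74% in NH-JS2_GA. In NH-JS1 and NH-JS1_GA they are 2.06% each, beside 1.60% and 2.63%.

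**Figure D5:**
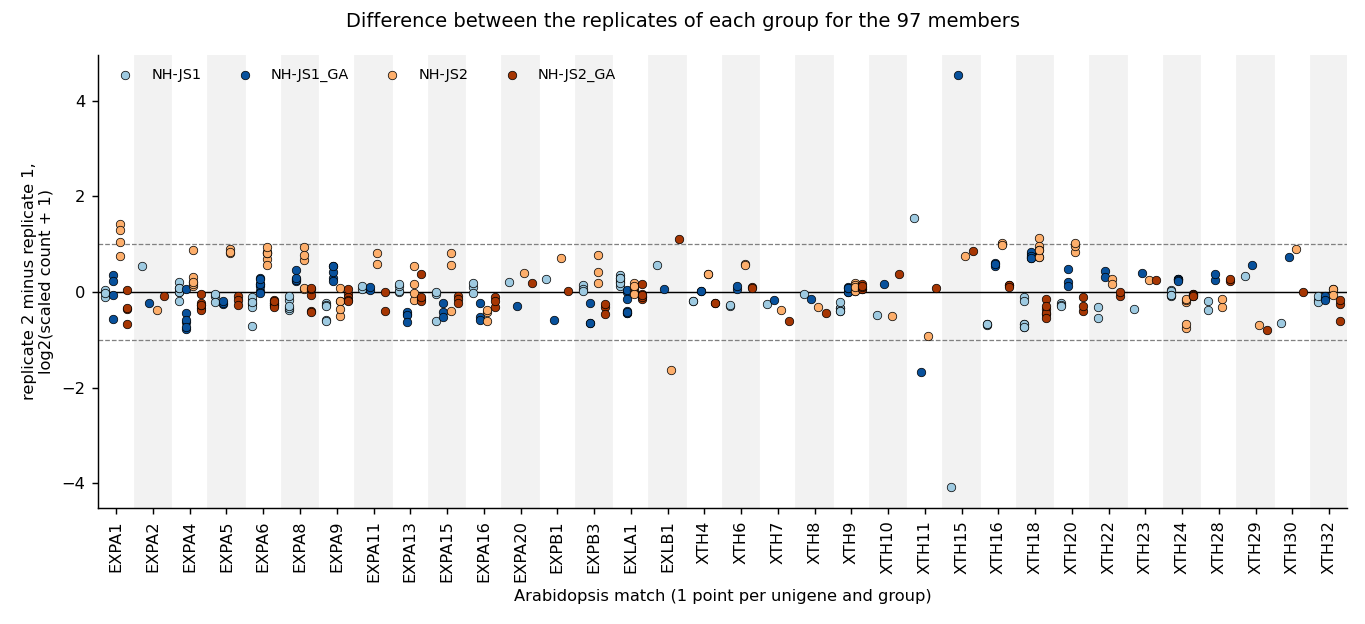
Difference between replicate 2 and replicate 1 in log2(scaled count + 1) (vertical axis) of each of the 97 members, by Arabidopsis match (horizontal axis), in the 4 groups; dashed lines mark 2-fold differences. XTH15 lies at -4.08 (NH-JS1) and at 4.53 (NH-JS1_GA), while the EXPA5, EXPA6, EXPA8 and EXPA11 points of NH-JS2 all lie above 0.

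The genes that make the polymers on which expansins and XTHs act were read from lists of Arabidopsis matches. In cellulose synthesis, 49 of 51 unigenes were tested and none passed for GA in either line, with medians of 0.18 in NH-JS1 and 0.16 in NH-JS2. At an unadjusted p under 0.05, 3 were higher in NH-JS1 and 7 in NH-JS2, and none lower, in edgeR, beside 3.22% and 3.74% of all unigenes higher. Between the lines 6 were higher and 9 lower without GA, and 6 and 5 with it. These are 30.6% and 22.4% of the 49, beside 30.2% and 28.7% of all unigenes. The 6 higher were unigenes of CESA5, a cellulose synthase subunit of primary walls and seed mucilage, led by TBIU000045 at 1.51 and 1.05. Another 4 unigenes of CESA5 were lower, by -0.47 to -0.65 without GA. CESA8, a subunit of secondary walls, was lower by -0.62 without GA.

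In xyloglucan synthesis, 34 of 39 unigenes were tested, and none passed for GA in edgeR. At an unadjusted p under 0.05, 5 were higher in NH-JS1 and 4 in NH-JS2 in edgeR, beside 3.22% and 3.74% of all unigenes higher. Between the lines 0 were higher and 1 lower without GA, and 0 and 2 with it, all unigenes of CSLC4, which makes the xyloglucan backbone, at -0.36 to -0.44. These are 2.94% and 5.88% of the 34, beside the same 30.2% and 28.7% of all unigenes. Among 13 unigenes of xyloglucan trimming, XYL1 TBIU019596, an alpha-xylosidase, was higher in NH-JS2 by 0.56 without GA and 0.74 with GA (adjusted p = 0.0352 and 0.0109 in edgeR). It was the only one of the 13 called between the lines. That is 7.69% in each setting, below the 30.2% and 28.7% of all unigenes. None of the 13 passed for GA in edgeR, and 4 were higher in NH-JS1 at an unadjusted p under 0.05, beside 3.22% of all unigenes.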

How the data were processed

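RNA was sequenced from 8 pools of radish shoots. The values deposited are raw counts per unigene, whole numbers of at least 1, which the authors obtained by quality trimming and by alignment to a radish unigene set (Bowtie2 2.1.0). The submitters' processing notes also name TopHat, without a version in what was read here. The deposited table also holds the authors' normalized values and log2 fold changes of 4 comparisons, which were not used. Unigenes carry Arabidopsis matches, descriptions and domains, and no sequence was used here.

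In R 4.3.3, edgeR 4.0.16 filtered the counts by group, which left 65934 unigenes, with TMM factors of 0.886 to 1.04 and a common dispersion of 0.0171. A model of 4 group means over the 8 libraries gave 6 comparisons by the quasi-likelihood test, and p-values were adjusted over all 65934 unigenes at a threshold of 0.05. Replicates are separate pools, so p-values measure the spread between pools. The members and lists were chosen with earlier results of these data known. EXPA1 was named because the study names it. Also named were members past the threshold for GA or else the 6 of lowest p, up to 12 of largest difference in each direction between the lines whose libraries did not overlap, and the member of highest count per subfamily. Other members named were chosen after their values were seen. Alternatives were DESeq2 1.42.0, library totals, no filter, the compared groups alone, a replicate block, counts less 1, summed counts, other thresholds, and leaving out each library.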

Additional observations from a re-analysis of the deposited data

How the results depend on the processing

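The calls for GA depended on the test. DESeq2 gave 5 members past the threshold and 3 past the criteria of the study for GA in NH-JS1, 3 and 3 in NH-JS2, and 6 and 3 averaged over the lines, against 0, 0 and 2 past the threshold and 0 past the criteria in edgeR. The averaged effect had 0 calls at an adjusted p of 0.01 and with the replicate number as a block, where both XTH24 unigenes had an adjusted p of 0.0866 and 0.0871. Same-numbered libraries did not deviate together (correlations of -0.07 to 0.12), so the block is no paired analysis. With GA it also ended the calls of XTH10, XTH9 TBIU039447 and EXPA4 TBIU041739 between the lines, and it ended none without GA. Between the lines without GA, 20 members passed an adjusted p of 0.01, and without the count minimum 20 met the criteria of the study, and 21 with GA. The share of all unigenes is not given for an adjusted p of 0.01, nor for the criteria of the study in these other fits. Such counts are therefore a description and cannot be set against a background. Summed counts gave 11 and 9 genes past the threshold and 3 and 4 past the criteria between the lines, and 0 calls in the averaged effect. Library totals shifted the median of all unigenes between the lines by -0.13 without GA, and that of the members to -0.12. The fit of the compared groups alone gives no value for the averaged effect or for the difference of the effects.

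Without each library in turn, 20 to 42 members passed between the lines without GA, 20 to 35 with GA and 0 to 5 in the averaged effect, while 19.7% to 29.4%, 19.6% to 32.1% and 0.052% to 0.773% of all unigenes did. The criteria of the study were met by 4 to 9 without GA and by 6 to 8 with GA. The medians of the members were 0.15 to 0.31 for GA in NH-JS1, -0.041 to 0.25 in NH-JS2, 0.061 to 0.26 averaged, -0.30 to 0.048 for the difference of the effects, -0.092 to 0.13 between the lines without GA and -0.23 to 0.011 with GA. For single members, signs were compared for the named ones only, of which EXPA1 was named in every comparison whatever its change. The reversals among these were of EXPA1 unigenes that had not passed. With library totals, TBIU018032 had 0.055 for GA in NH-JS2 and TBIU018148 had 0.055 for the difference of the effects. With libraries left out, TBIU018147 had -0.19 to 0.40 for GA in NH-JS1, and in NH-JS2 TBIU005408 had -0.21 to 1.23, TBIU018148 -0.23 to 1.08 and TBIU018032 -0.51 to 0.54. For the difference of the effects, TBIU005408 had -0.68 to 0.76, TBIU018148 -0.59 to 0.73 and TBIU018032 -0.38 to 0.68. TBIU018032 also had -0.32 to 0.21 averaged over the lines and -0.20 to 0.86 between the lines without GA. The cause of these changes was not tested, beyond the smaller number of libraries in each fit.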

Other observations

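Members of the same families whose description lacks the wording of the rule add 10 unigenes, and none of them passed for GA in edgeR or for the difference of the effects. XTH27, which acts in the veins of Arabidopsis leaves, and XTH33, an XTH anchored to the plasma membrane in Arabidopsis, were higher in NH-JS2 without GA. Of the 10 unigenes, 5 were higher without GA and 4 with GA, all of these genes, and none was lower. Beside this, 15.4% and 14.4% of all unigenes were higher. Values of these unigenes in the other fits are not given. The 2 unigenes of XTH27 were higher by log2 fold changes of 1.45 and 1.30 without GA (adjusted p = 0.000789 and 0.00146 in edgeR). With GA, TBIU025313 was higher by 0.70, and TBIU058461 did not pass at 0.62. The 3 unigenes of XTH33 were higher by 1.16 to 1.22 without GA and 0.85 to 0.86 with GA. For GA, the 4 unigenes of XTH31, which mainly hydrolyses xyloglucan in Arabidopsis, lay below 0 in both lines, at -0.51 to -0.56 in NH-JS1 and -0.50 to -0.54 in NH-JS2, with adjusted p of 0.532 to 0.572 in edgeR. EXPA3 was at 0.41 without GA and 0.12 with GA between the lines and did not pass.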
